A study of Mus musculus with 7 samples.

Results

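The keratin-associated proteins, encoded by the Krtap genes, were described in regenerating and intact mouse digits. Members were the genes whose symbol starts with Krtap, each read from 1 array probe set annotated to that single gene, the brightest where a gene had several. This gave 51 members of 22180 genes in all, spread over 24 numbered subfamilies. The blastema is the mass of cells that forms at an amputated digit tip and rebuilds it. The blastema group held 3 arrays of blastemas taken 2 weeks after amputation from C57Bl/6 mice. The uninjured group held 4 arrays of intact digits from the same strain. The labels call the samples of each group biological replicates and give no age, sex, batch or pooling. They do not say how much of the digit each sample held, so the share of nail in each is not known.

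Keratin-associated proteins fill the space between the keratin filaments of hair and nail and cross-link them, largely through disulfide bonds between cysteines. They are grouped by composition into high sulfur and ultra-high sulfur proteins, rich in cysteine, and high glycine-tyrosine proteins. Their genes sit in a few tight clusters and are switched on late, as cells of the hair shaft or nail plate harden. In the digit tip the nail organ makes hard keratins of this kind, and the nail is known to be needed for digit tip regrowth in the mouse. These measurements are of bulk tissue, in which fewer cells of a type and less RNA per cell cannot be told apart.

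The tissue was checked against markers of the hair shaft and nail plate. All 9 measured shaft and plate keratins lay above a background level of 5.52 on the log2 scale, defined as the 95th percentile of the means of 1105 olfactory receptor genes. Their mean levels ran between 9.74 and 13.19. Their summed linear level was 49299, 45459 and 40044 on the blastema arrays and 57401, 48253, 44388 and 47829 on the uninjured arrays, so the groups overlapped. Of 10 markers of the inner root sheath and companion layer of the follicle, which are other keratins and the trichohyalin gene Tchh, 3 lay above the background level, with mean levels of 3.92 to 6.37. Their sums were 411, 423 and 327 on the blastema arrays and 447, 398, 397 and 338 on the uninjured arrays.

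Of the 51 members, 45 lay above the background level in at least 1 group, and 6 did not (Krtap5-3, Krtap9-5, Krtap10-10, Krtap12-1, Krtap31-1 and Krtap31-2). The family reached the top of the measured scale. Of the 79 genes on the arrays with a mean level of 12 or more, 24 were Krtap members. Such levels were seen in 47.1% of the members and 0.356% of all genes. Probe sets differ in how strongly they bind, so this is a position on the scale and not a ranking of transcripts.

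Most members had lower mean levels in the blastema, and no single one passed the test. limma, fitted over all 22180 genes with Benjamini-Hochberg adjustment, called 0 of 51 members lower at an adjusted p under 0.05, against a background of 4.66% of genes called lower. It called 0 members higher, against 4.98% of genes. At an unadjusted limma p under 0.05, 18 members were lower (35.3%, against 12.7% of all genes) and 4 were higher (7.84%, against 12.2%). The share that was lower depended on level. With a mean of 12 or more it was 54.2% of members and 40.5% of all genes, where 13 of the 32 were members. Between 10 and 12 it was 3 of 6 members and 36.6% of all genes. Between the background level and 10 it was 13.3% of members and 17.4% of all genes. The mean was lower in the blastema for 43 of 51 members (84.3%), against 51.4% of all genes. The median log2 fold change, blastema minus uninjured, was -0.26 over the members and -0.005 over all genes. The groups did not overlap for 9 members with lower blastema levels (17.6%), where the background was 10.6% of genes. These were Krtap4-16, Krtap6-2, Krtap6-3, Krtap7-1, Krtap11-1, Krtap13-1, Krtap21-1, Krtap22-2 and Krtap24-1. Of these, 8 had a mean level of 12 or more. At that level the share was 33.3% of the 24 members and 31.6% of all 79 genes, the members included. The mean was lower in the blastema for 86.1% of those 79 genes. They did not overlap for 3 members with higher levels, Krtap5-3, Krtap10-4 and Krtap14, where the background was 10.4%.

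**Figure D1:**
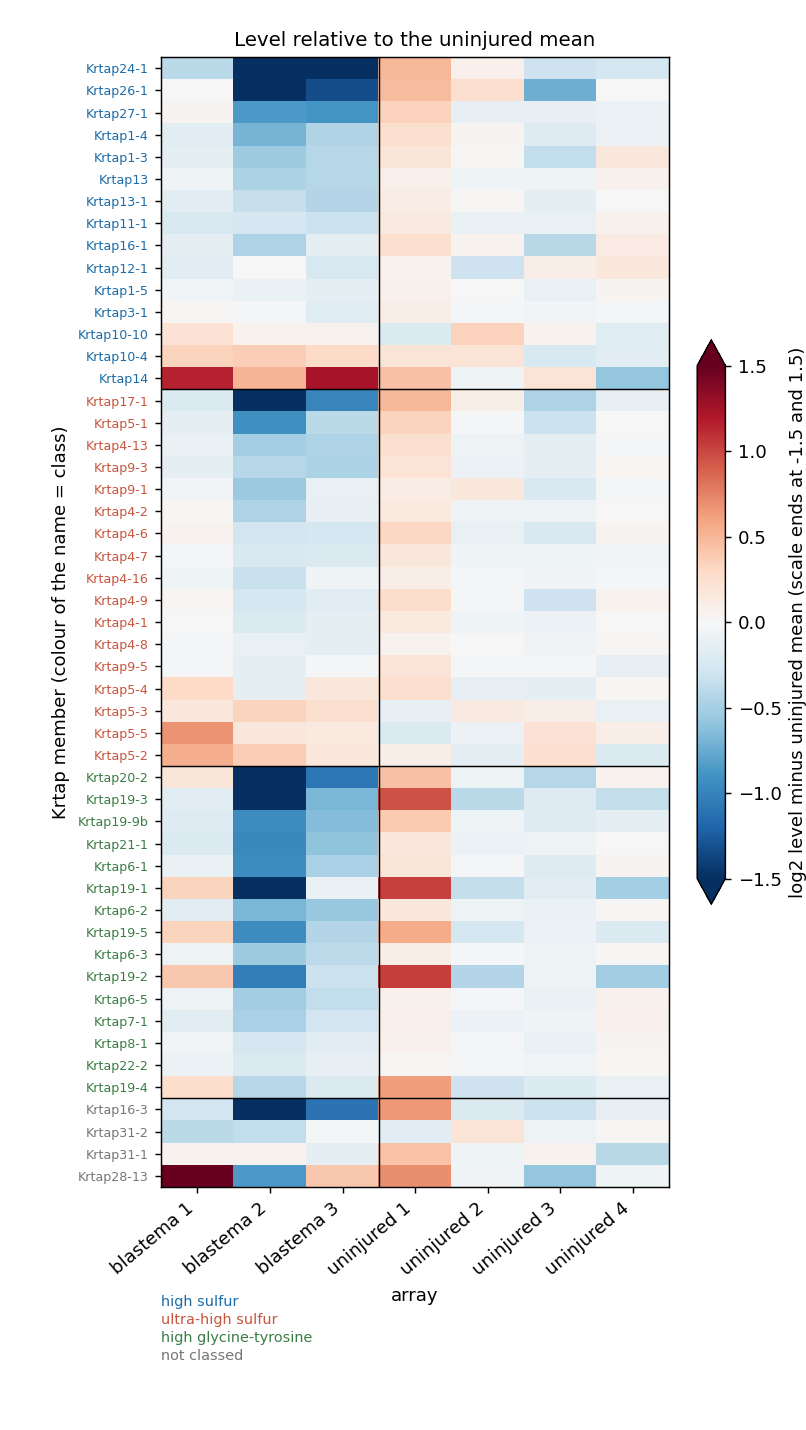
Each row is 1 of the 51 Krtap members and each column 1 array, blastema arrays left of the uninjured ones. Colour gives the log2 level minus that member's uninjured mean (blue lower, red higher), and name colour gives the class. The blastema array 2 column is the bluest, with 40 of 51 members below the range of the uninjured arrays, and the blastema array 1 column is pale, with 10.

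The blastema arrays differed among themselves in the family. Blastema array 2 lay below the range of the uninjured arrays for 40 of 51 members and blastema array 3 for 33. Blastema array 1 did so for 10 and lay within that range for 34. Over all genes these shares were 23.2% on blastema array 1, 26.1% on array 2 and 29.0% on array 3. The median distance from the uninjured mean was -0.04, -0.46 and -0.24 on blastema arrays 1, 2 and 3. On the uninjured arrays it was 0.18, -0.06, -0.11 and -0.01.

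Blastema array 2 was the lowest of the 7 arrays for 34 of 51 members (66.7%), against 13.4% of all genes. Uninjured array 1 was the highest of the 7 for 39 (76.5%), against 20.2% of all genes. Within the blastema group, array 1 was the highest for 46 members (90.2%), against 43.3% of all genes. The blastema SD was larger than the uninjured SD in 35 of 51 members (68.6%), against 45.1% of genes. At a mean level of 12 or more, blastema array 2 was the lowest for 70.8% of members and 34.2% of all genes. In the latter, 17 of the 27 were members. Uninjured array 1 was the highest for 91.7% of these members and 49.4% of these genes, where 22 of the 39 were members. Blastema array 1 was the highest of its group for 100% and 65.8%, and the blastema SD was larger in 79.2% and 63.3%. With blastema array 1 left out, limma called 12 of 51 members lower, against a background of 4.55% of genes. With both arrays numbered 1 left out, an alternative chosen after the data were seen, 11 members were lower, against 4.96% of genes. The log2 fold change of Krtap24-1 was then -1.83 (limma adjusted p 0.0168), against -1.46 over all 7 arrays. No member was called when any other single array was left out. The members' median log2 fold change of -0.26 became -0.12 without blastema array 2 and -0.16 without uninjured array 1.

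Promoters of 46 of the 51 members were found in RefSeq's mouse tables (build GRCm38.p6), as windows of 300 bases with 250 before and 50 after the start of the gene. The motif TATAAA, the core of the TATA box that positions the polymerase, was in 39 of 46 member windows on either strand (84.8%). It was in 4473 of 32851 windows of all promoters (13.6%). On the gene's strand and 50 to 16 bases before the start, it was in 31 of 46 (67.4%) and in 2.32% of all windows. CTTTGA, a core of the sites of LEF and TCF factors, was in 12 of the 46 windows (26.1%) and in 5257 of 32851 windows of all promoters. CAATAAA and CTCGTAAA, forms of the site of the nail and hair factor HOXC13 in published work, were in 0 and 1 of the 46 windows, and in 4.60% and 0.131% of all. All searches covered both strands unless stated, and a match is a description of letters and not a site in use. The windows below belong to the 3 members with the lowest log2 fold changes and the member with the highest, 5′ to 3′ on the gene's strand, with TATAAA and CTTTGA in capitals on either strand.
Krtap24-1, chr16:88612230-88612529, minus strand: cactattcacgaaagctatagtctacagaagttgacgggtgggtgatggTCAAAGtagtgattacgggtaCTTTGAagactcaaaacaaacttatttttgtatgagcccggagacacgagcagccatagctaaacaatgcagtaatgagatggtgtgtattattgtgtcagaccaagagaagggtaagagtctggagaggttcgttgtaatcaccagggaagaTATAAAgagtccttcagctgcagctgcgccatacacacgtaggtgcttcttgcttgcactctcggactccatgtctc
Krtap20-2, chr16:89205611-89205910, plus strand: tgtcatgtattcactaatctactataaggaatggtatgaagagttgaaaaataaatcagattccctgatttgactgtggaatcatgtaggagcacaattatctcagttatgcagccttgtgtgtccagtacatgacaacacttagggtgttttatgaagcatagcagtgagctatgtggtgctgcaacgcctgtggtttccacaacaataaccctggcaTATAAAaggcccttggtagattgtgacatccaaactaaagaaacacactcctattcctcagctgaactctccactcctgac
Krtap17-1, chr11:99993945-99994244, minus strand: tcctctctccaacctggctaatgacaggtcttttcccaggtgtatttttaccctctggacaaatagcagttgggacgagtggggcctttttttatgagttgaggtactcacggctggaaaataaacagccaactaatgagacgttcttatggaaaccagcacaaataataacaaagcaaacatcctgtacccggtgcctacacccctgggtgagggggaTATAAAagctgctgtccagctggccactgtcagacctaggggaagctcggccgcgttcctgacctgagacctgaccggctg
Krtap14, chr16:88826096-88826395, minus strand: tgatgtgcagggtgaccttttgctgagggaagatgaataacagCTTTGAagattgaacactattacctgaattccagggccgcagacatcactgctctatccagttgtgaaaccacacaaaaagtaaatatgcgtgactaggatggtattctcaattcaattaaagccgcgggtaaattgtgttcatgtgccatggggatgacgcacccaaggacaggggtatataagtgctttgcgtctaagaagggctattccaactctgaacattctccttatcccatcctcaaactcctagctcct
TATAAA began 27 bases before the start in Krtap24-1 and 31 before it in both Krtap20-2 and Krtap17-1. The window of Krtap14 held no TATAAA and 1 CTTTGA. It did hold the similar letters TATATAAG, as did those of Krtap19-1, Krtap19-2, Krtap19-3 and Krtap19-4, which the exact search does not count.

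All 15 high glycine-tyrosine members (subfamilies 6, 7, 8 and 19 to 22) had lower means in the blastema, with a median log2 fold change of -0.35 and a range of -1.21 to -0.12. All 15 were above the background level, and 8 (53.3%) were lower at an unadjusted limma p under 0.05. That share was 12.7% of all genes and 40.5% of genes with a mean of 12 or more, a set that includes Krtap members. The groups did not overlap in 5 (33.3%), each with a mean of 12 or more. Over all genes that share was 10.6%, and 31.6% at that level. Without blastema array 2 the mean was lower in 12 of the 15, with Krtap19-1, Krtap19-2 and Krtap19-4 higher and a median of -0.23. Without uninjured array 1 it was lower in 13, and without blastema array 1 the median was -0.68. Blastema array 2 was below the uninjured range for 15 of 15, array 3 for 12 and array 1 for 5. These small proteins, rich in glycine and tyrosine, are known from the hair cortex.

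Krtap6-2 had the smallest adjusted p of the family. Its log2 levels were 12.80, 12.28 and 12.40 in blastemas and 13.12, 12.90, 12.87 and 12.99 in uninjured digits. Every blastema array lay below every uninjured array. The difference was -0.47 ± 0.13 (SE, 95% interval -0.78 to -0.16), with limma's adjusted p at 0.0706. The other members of subfamily 6 lay close to it, with a median of -0.40 over 4 genes. A brighter probe set shared by Krtap6-1, 1110025L11Rik and Gm10228 differed by -0.018, and the Krtap6-1 probe set used by -0.51.

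Krtap21-1 had 12.28, 11.52 and 11.88 in blastemas and 12.65, 12.39, 12.40 and 12.48 in uninjured digits, again with no overlap. Its difference was -0.59 ± 0.17 (SE, limma adjusted p 0.0772). Krtap7-1 had 12.70, 12.39 and 12.59 in blastemas and 12.96, 12.79, 12.80 and 12.94 in uninjured digits, and its difference of -0.31 ± 0.09 also left the groups apart. Krtap22-2 lay at the top of the scale, at 13.39 ± 0.06 in blastemas (SD, n = 3) and 13.53 ± 0.03 in uninjured digits (SD, n = 4). Its groups did not overlap either, at a difference of -0.14 ± 0.06. Krtap8-1 differed by -0.15 ± 0.07 (SE), with blastema array 1 at 13.00 inside the uninjured range of 12.94 to 13.10.

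Krtap20-2, whose promoter is shown above, was far more variable. It had 9.92, 7.01 and 8.65 in blastemas and 10.18, 9.68, 9.31 and 9.79 in uninjured digits. Blastema array 1 lay among the uninjured arrays and blastema array 2 more than 2 log2 units below them. The difference of -1.21 ± 0.61 (SE) was within the spread between arrays, with limma's adjusted p at 0.274. It was -1.91 without blastema array 1 and -0.45 without blastema array 2. Krtap19-9b, the brightest member of subfamily 19, had 11.96, 11.21 and 11.50 in blastemas and 12.54, 12.09, 11.96 and 12.02 in uninjured digits. Its difference was -0.59 ± 0.20 (SE, limma adjusted p 0.123).

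The 6 members of subfamily 19 had a median difference of -0.41. It was -0.74 without blastema array 1, -0.01 without blastema array 2 and -0.15 without uninjured array 1. In each of the 6, blastema array 2 was the lowest of the 7 arrays and uninjured array 1 the highest. Krtap19-1, chosen after its values were seen, shows the pattern, with 7.86, 5.86 and 7.42 in blastemas and 8.55, 7.16, 7.36 and 7.01 in uninjured digits. Blastema arrays 1 and 3 lay within the uninjured range.

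**Figure D2:**
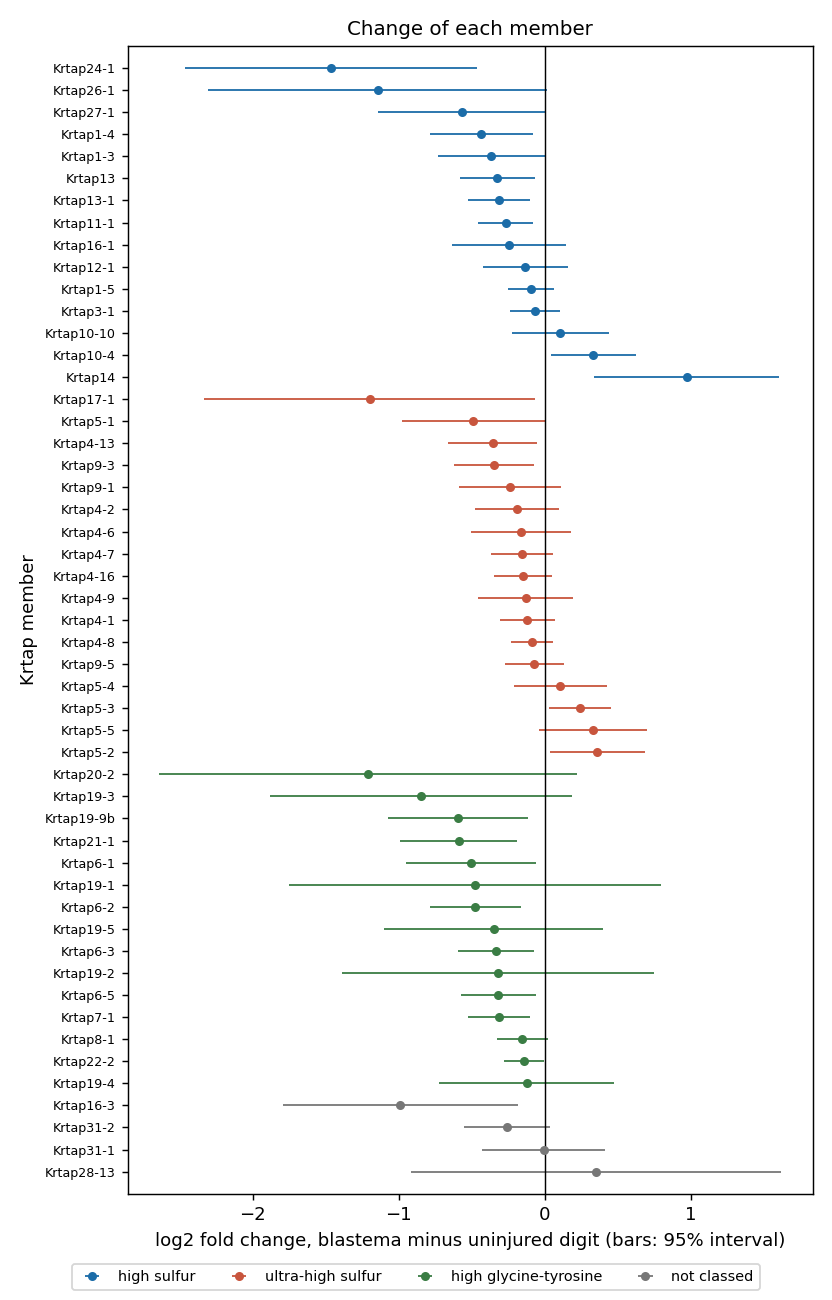
Points give the log2 fold change of each member, blastema minus uninjured digit, with bars for limma's 95% interval, grouped and coloured by class. The 15 high glycine-tyrosine members all lie left of 0, Krtap24-1 lies farthest left at -1.46 and Krtap14 farthest right at 0.97.

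The 15 high sulfur members (subfamilies 1, 3, 10 to 14, 24, 26 and 27, and Krtap16-1) held both ends of the family. Their median was -0.27, with 12 lower means. The groups did not overlap in 3 lower and 2 higher members, against 10.6% and 10.4% of all genes. Krtap24-1 had the lowest log2 fold change of all 51, and the protein of its human counterpart is known from the hair cuticle. Its levels were 8.44, 6.57 and 7.11 in blastemas and 9.34, 8.91, 8.53 and 8.57 in uninjured digits. All 3 blastema arrays lay below all 4 uninjured arrays, blastema array 1 by a small margin. The difference of -1.46 ± 0.43 (SE, 95% interval -2.47 to -0.46) is a 2.76-fold lower mean, with limma's adjusted p at 0.0811.

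Krtap26-1, whose human counterpart is also a cuticle protein, had 7.56, 5.47 and 6.24 in blastemas and 8.04, 7.82, 6.84 and 7.57 in uninjured digits. Blastema array 2 was below the background level of 5.52, and blastema array 1 lay within the uninjured range. The difference was -1.14 ± 0.50 (SE, limma adjusted p 0.207), and -0.67 without blastema array 2. Krtap27-1 had 11.36, 10.46 and 10.43 in blastemas and 11.66, 11.19, 11.19 and 11.23 in uninjured digits, a difference of -0.57 ± 0.24, and of -0.88 without blastema array 1. Its blastema array 1 stood with the uninjured digits, above 3 of them.

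The brighter high sulfur members had smaller differences. Krtap11-1, found in the hair cortex, had 12.67, 12.64 and 12.57 in blastemas and 13.03, 12.80, 12.79 and 12.96 in uninjured digits, with no overlap. Its difference was -0.27 ± 0.08 (SE, limma adjusted p 0.0861). Krtap13-1 had 12.52, 12.32 and 12.24 in blastemas and 12.79, 12.69, 12.54 and 12.66 in uninjured digits, a difference of -0.31 ± 0.09. Blastema array 1 lay just under the lowest uninjured array. Krtap1-5 and Krtap3-1, of subfamilies known from the human hair cortex, differed by -0.09 ± 0.07 and -0.07 ± 0.07 (SE), within the spread between arrays.

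Krtap14 ran the other way. It was first described in the mouse as Pmg1, a gene of skin and mammary gland epithelium. It had 6.96, 6.31 and 7.04 in blastemas and 6.24, 5.73, 6.01 and 5.22 in uninjured digits. Each blastema array lay above each uninjured array, and uninjured array 4 was under the background level. The difference was 0.97 ± 0.27 (SE, 95% interval 0.34 to 1.61), a 1.96-fold higher mean with limma's adjusted p at 0.0707. A probe set shared by Krtap15, its relative Pmg2, and 4930553J12Rik was outside the rule because it has more than 1 symbol. It had 7.93, 7.13 and 7.88 in blastemas and 7.40, 6.71, 6.90 and 6.88 in uninjured digits, a difference of 0.67 with overlap on blastema array 2. Krtap10-4, of a subfamily known from the human hair cuticle, lay just above the background level. It had 5.81, 5.84 and 5.76 in blastemas and 5.66, 5.68, 5.25 and 5.31 in uninjured digits, a difference of 0.33 ± 0.12 (SE). A brighter probe set shared by Krtap10-4 and predicted genes differed by 0.015.

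The 17 ultra-high sulfur members (subfamilies 4, 5, 9 and 17) had a median of -0.15, with 13 lower means. The groups did not overlap in 1 lower and 1 higher member, against 10.6% and 10.4% of all genes. The median was -0.07 without blastema array 2 and, likewise, -0.07 without uninjured array 1. The 8 members of subfamily 4 were bright and close together, with mean levels of 12.39 to 13.15 and differences of -0.36 to -0.09. Krtap4-8, the brightest of them, had 13.17, 13.08 and 13.05 in blastemas and 13.24, 13.18, 13.13 and 13.21 in uninjured digits. Blastema array 1 overlapped the uninjured arrays. Krtap9-1 had a difference of -0.24 ± 0.15 (SE), with blastema array 2 at 12.61 as its lowest, and of -0.08 without that array.

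Krtap17-1 had 10.28, 8.10 and 9.49 in blastemas and 10.98, 10.58, 10.03 and 10.37 in uninjured digits. Blastema array 2 was more than 1 log2 unit below the next array and blastema array 1 was within the uninjured range. The difference was -1.20 ± 0.48 (SE, 95% interval -2.33 to -0.06), with limma's adjusted p at 0.178. It was -0.60 without blastema array 2.

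Subfamily 5, known from the human hair cuticle, was the one with over 2 members whose median was above 0, at 0.24 over 5 genes. Krtap5-2 had 6.44, 6.26 and 6.04 in blastemas and 5.98, 5.76, 6.14 and 5.68 in uninjured digits, a difference of 0.36 ± 0.14 (SE, limma adjusted p 0.165). Krtap5-5 had 6.53, 6.03 and 6.00 in blastemas and 5.64, 5.77, 6.07 and 5.95 in uninjured digits, a difference of 0.33 ± 0.16 that was 0.16 without blastema array 1. Both overlapped the uninjured arrays, and their group means lay within 1 log2 unit of the background level. Krtap5-1, the brightest of the subfamily, had the opposite sign, with 10.72, 9.96 and 10.47 in blastemas and 11.21, 10.86, 10.55 and 10.88 in uninjured digits. A second, dimmer probe set of Krtap5-1 differed by -0.12 and the one used by -0.49, which was -0.28 without blastema array 2.

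Among the 4 members placed in no class, Krtap16-3 had 10.60, 9.30 and 9.78 in blastemas and 11.54, 10.67, 10.56 and 10.76 in uninjured digits. Its difference was -0.99 ± 0.34 (SE, limma adjusted p 0.126), with blastema array 1 just inside the uninjured range. Krtap28-13 had 8.26, 5.89 and 7.16 in blastemas and 7.45, 6.70, 6.17 and 6.68 in uninjured digits. Its blastema arrays spanned more than the whole uninjured range, and the difference of 0.35 ± 0.54 (SE) was within that spread. It became -0.23 with blastema array 1 left out and 0.96 with blastema array 2 left out.

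**Figure D3:**
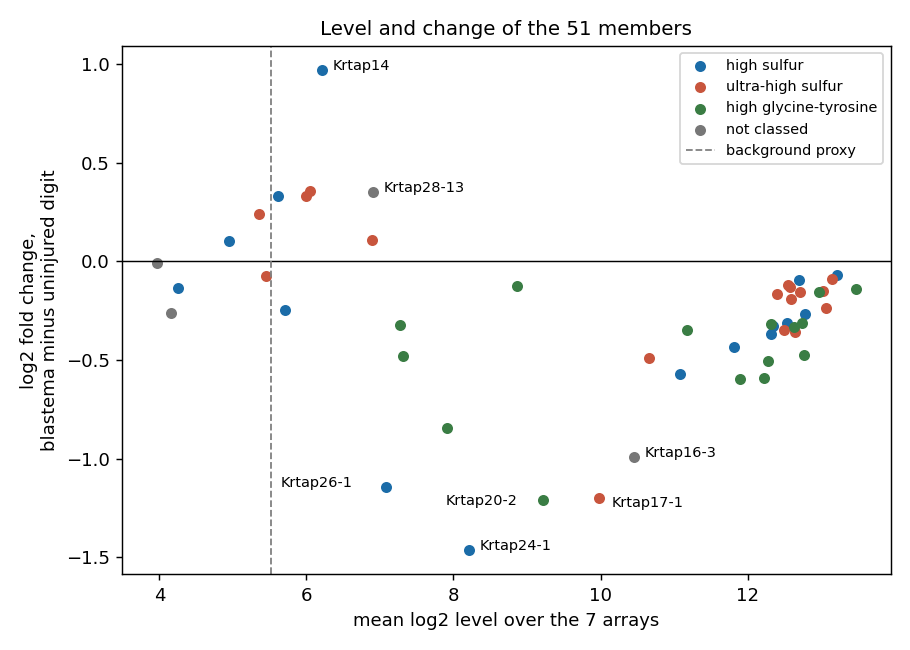
Each point is 1 of the 51 members, with its mean log2 level over the 7 arrays across and its log2 fold change, blastema minus uninjured digit, up. The 24 members at a level of 12 or more lie between -0.59 and -0.07, and the 15 between the background level (dashed) and 10 spread from -1.46 to 0.97.

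The range of the differences was set out by level, in bands chosen after the data were seen. The 24 members with a mean of 12 or more had log2 fold changes of -0.59 to -0.07. Their median was -0.25, against -0.15 for all 79 genes at that level, these members included. The 6 members between 10 and 12 had -0.99 to -0.35, with a median of -0.53. The 15 between the background level and 10 spread from -1.46 to 0.97, with a median of -0.25. Whether probe sets near the top of the scale respond less to a given change in RNA was not tested. By chromosome, in RefSeq's table, 23 members on chromosome 16 had a median of -0.35, 22 of them with lower means. The 19 on chromosome 11 had a median of -0.16, all with lower means, and the 5 on chromosome 7, all of subfamily 5, had a median of 0.24. Neighbouring Krtap genes are alike in sequence, so probe sets of near-identical genes may share signal and are not independent of each other. A further 10 probe sets carried a Krtap symbol among several, with log2 fold changes of -0.79 to 0.67.

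The keratins that these proteins cross-link gave the following counts, from lists chosen with results of these data known. Of 9 type I hair and nail keratins, limma called 1 lower (11.1%), and of 6 type II ones it called 0. It called 4.66% of all genes lower, and 10.1% of genes with a mean of 12 or more. The median log2 fold changes were -0.09 for type I and -0.24 for type II. Krt35, an early keratin of the hair cortex and nail matrix, had 9.31, 9.01 and 8.72 in blastemas and 10.86, 10.49, 9.93 and 9.87 in uninjured digits. It fell by 1.28 ± 0.26 on the log2 scale (SE, limma adjusted p 0.0261), with no overlap. That call was lost without blastema array 2 (adjusted p 0.0969), blastema array 3 (0.112) or uninjured array 2 (0.0809). Krt34, a cortex keratin chosen after its values were seen, differed by -0.05 ± 0.07.

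The array that was most often the lowest within the blastema group was array 3 for keratins and array 2 for Krtap genes. Blastema array 3 was the lowest of the 3 for 8 of 9 type I and 5 of 6 type II keratins, against 31.1% of all genes and 46.8% of genes with a mean of 12 or more. Blastema array 2 was the lowest for 37 of 51 Krtap members, including 15 of 15 high glycine-tyrosine ones. It was the lowest for 29.0% of all genes and 38.0% of genes with a mean of 12 or more. Krtap members were themselves 18 of the 30 genes behind that 38.0%. The high sulfur members were split, with 8 lowest on array 2 and 7 on array 3. This is a description of 3 arrays, and the difference was not tested.

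**Figure D4:**
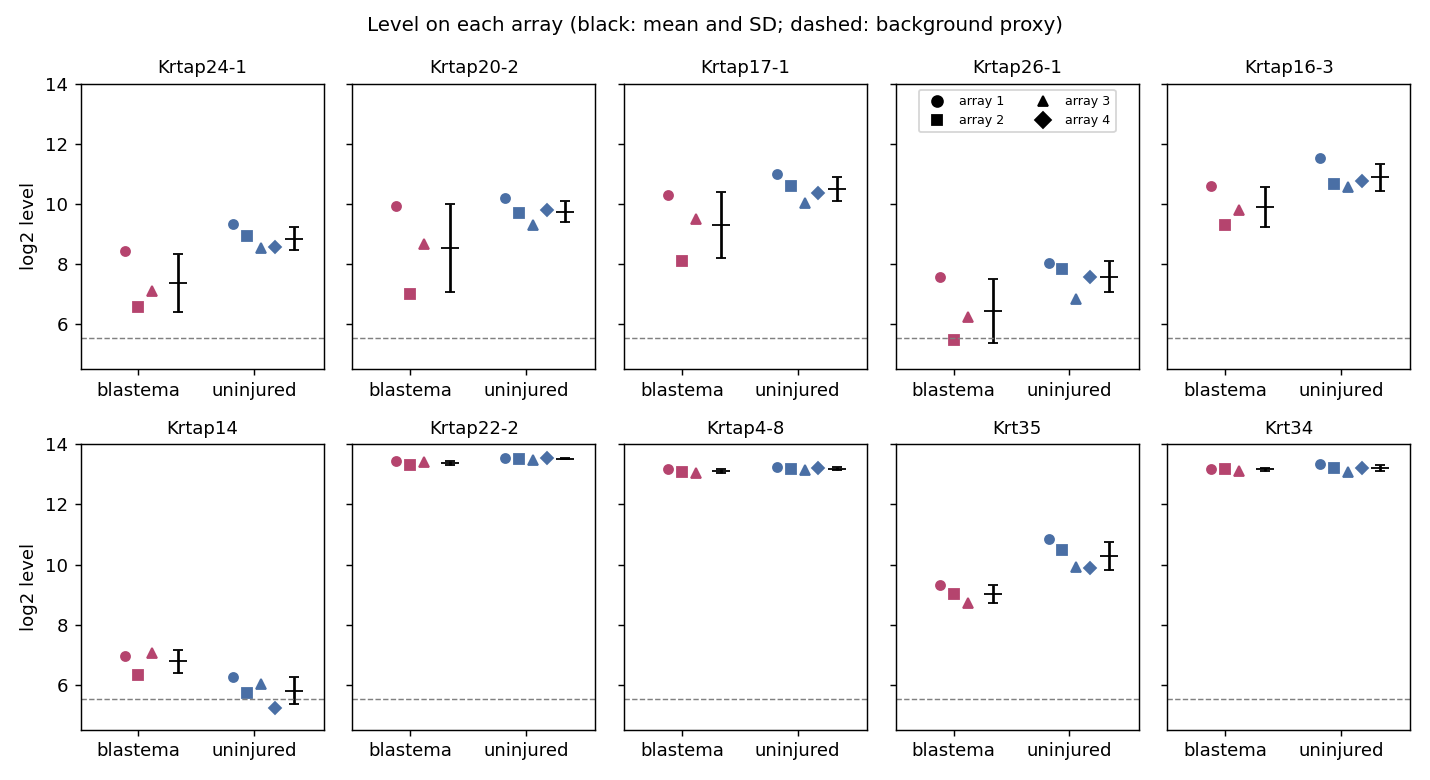
Points are log2 levels on single arrays, with blastema (pink) left of uninjured (blue), symbols for array numbers, and black marks for the mean and SD. In Krtap20-2, Krtap17-1 and Krtap26-1 blastema array 1 stands with the uninjured digits and array 2 is the lowest, while Krtap22-2, Krtap4-8 and Krt34 stay near 13 in both groups.

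Of 11 genes for proteins that shape and harden the shaft, limma called 0, with 5 lower and 2 higher at an unadjusted p under 0.05 (12.7% and 12.2% of all genes). The median level of the 11 was 10.69. Among all genes with a mean of 10 to 12 those shares were 36.6% and 20.1%. With single arrays left out it called 0 to 3 lower and 0 to 1 higher. S100a3, a calcium-binding protein of the hair cuticle, had 10.70, 9.35 and 9.74 in blastemas and 11.32, 10.89, 10.68 and 10.80 in uninjured digits. Blastema array 2 was again the lowest, and the difference was -0.99 ± 0.31 (SE, limma adjusted p 0.0985). Gprc5d, an orphan receptor of hardening hair and nail cells, differed by -0.96 ± 0.29, and Selenbp1, a selenium-binding protein, by -0.92 ± 0.24 (limma adjusted p 0.0851 and 0.054). The 2 higher at an unadjusted p under 0.05 were Sprr1a, by 0.79 ± 0.27, and Dsc2, by 0.41 ± 0.12 (SE, limma adjusted p 0.126 and 0.087).

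Of 10 transcription factors of the shaft and nail, limma called 1 higher and 0 lower, against 4.98% and 4.66% of all genes. Hoxc13, which drives hair and nail keratin genes, had 8.50, 8.08 and 7.93 in blastemas and 8.51, 8.30, 8.07 and 8.32 in uninjured digits, a difference of -0.13 ± 0.15. Foxn1, the factor missing in nude mice, differed by -0.07 ± 0.26 (SE). Vdr, the vitamin D receptor, had 9.53, 9.65 and 9.59 in blastemas and 9.11, 8.94, 8.93 and 8.86 in uninjured digits. Every blastema array was above every uninjured one, and the rise of 0.63 ± 0.08 (SE) had an adjusted p of 0.00452 in limma and 0.055 with the replicate number as a block.

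Markers of other tissue layers were counted in the same way, and the calls differed between layers. Of 8 markers of cornified epidermis, 6 were called lower by limma, and 4 to 5 with single arrays left out. Their summed linear levels were 20461, 20717 and 19447 in blastemas and 26490, 29054, 31491 and 30250 in uninjured digits. Of 5 basal epidermis markers 0 were called, with sums of 8055 to 8848 in blastemas and 7782 to 8280 in uninjured digits. Of 9 outer root sheath and bulge markers, 3 were called higher (1 to 4 with single arrays left out) and 1 lower (0 to 1). Those higher were Krt6a, Krt6b and Sox9, and Krt15 was lower by 2.30 (limma adjusted p 0.0265). The sums were 17432 to 19565 in blastemas and 13758 to 14945 in uninjured digits. The brightest genes in them were Krt6a, Krt16 and Krt6b, with mean levels of 12.17, 12.14 and 12.13. All 4 bone markers were called higher (3 to 4 with single arrays left out), with sums of 9016, 12683 and 11922 in blastemas and 452 to 981 in uninjured digits. Of 5 dermal papilla markers 2 were called higher (1 to 2 with single arrays left out), Alpl by 3.44 and Vcan by 1.34. Corin, Crabp1 and Sox2 differed by 0.04, -0.18 and -0.31 and were not called. Of 4 reference genes 1 was called higher (0 to 1), with a median log2 fold change of 0.26. Their sums were 6939, 7154 and 7330 in blastemas and 5514, 6138, 6077 and 6071 in uninjured digits. Uninjured array 1 was the lowest of the 7 arrays for 3 of the 4. Over all genes limma called 4.66% lower and 4.98% higher. The part of these markers in the Krtap differences was not tested.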

How the data were processed

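Total RNA of 3 blastema samples and 4 uninjured digit samples was turned into biotin-labelled cDNA and measured on arrays with a single dye, as the labels' protocols describe. The authors deposited log2 levels per probe set, computed with oligo and RMA, per the submitters' processing notes. Their versions and the array's build were not given in the sources used here, and the table carries no detection call. RMA sets all arrays to one distribution, so a global difference in RNA would not show. Array medians were 5.53 to 5.58. Arrays have no read depth, and their number limits the precision. The table held 41345 probe sets and 0 columns of other samples. The platform annotation gave 1 symbol for 23521, several for 1814 and none for 16010.

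Blastema was compared with uninjured digit in limma 3.58.1 (R 4.3.3, lmFit and eBayes) over all 7 arrays, with no covariate or filter. The p-values are two-sided. Benjamini-Hochberg adjustment ran over 22180 genes, and a gene was called at an adjusted p under 0.05. Every adjusted p in the text is from limma. The step was tested on simulated data. Named members were those called, the 5 with the lowest and the 5 with the highest log2 fold change, and the brightest of each subfamily above the background level, 24 in all. Others were named after their values were seen or to complete a count. The members and lists were chosen with earlier results of these data known. Classes follow textbook subfamily numbers, because the planned classes from protein composition were not analysed here, and the level bands were set after the data were seen. Alternatives were a replicate block, a level filter at the 30th percentile, the mean of all probe sets, a trend with robust variances, array weights, median scaling and omission of arrays. Tables and figures were made with Python 3.11.15, pandas 2.3.3 and matplotlib 3.10.9.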

Additional observations from a re-analysis of the deposited data

Results flagged for a closer look

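Among the 24 named members, the 4 uninjured arrays were tested for 1 array standing apart from the others, by its gap to the nearest array over the group's range (Dixon's ratio, at its 95% critical value). Uninjured array 1 stood apart as the highest for Krtap3-1, at a ratio of 0.882, and for Krtap27-1, at 0.922. Chance gives such a value in about 1 of 20 groups. Blastema groups of 3 arrays were not tested in this way.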

How the results depend on the processing

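The median log2 fold change of the members stayed below 0 in every alternative run, between -0.32 and -0.12, and the mean was lower in 40 to 44 of 51 members when single arrays were left out. Calls of single members did depend on the setting. Against 0 members called lower over all 7 arrays, limma called 1 with a replicate block (Krtap16-3, adjusted p 0.0498), 1 with the level filter (Krtap6-2), 7 with array weights, 2 with median scaling, 5 among genes above the background level and 11 without both arrays numbered 1. The share of all genes called lower was 1.37% with the replicate block, 7.97% with the level filter, 6.52% with array weights, 5.85% with median scaling and 10.003% above the background level, so 2 of 51 and 1 of 47 lay below it and 5 of 45 close to it. Leaving out single arrays gave 0 to 12, the highest without blastema array 1. Median scaling moved the median of all genes from -0.005 to -0.04. The number called higher was 0, with 1 of 47 (Krtap14) under the level filter and 1 of 45 among genes above the background level, where fewer genes were tested. Calls in either direction, the lower ones included, made up 16.4% of all genes under the level filter and 20.6% above the background level. Over all genes, 2139 were called, with 599 under the replicate block and 845 to 2295 when single arrays were left out. The replicate numbers were not shown to pair arrays. Deviations of same-numbered arrays correlated at 0.286, 0.151 and -0.065 across genes, and not every array correlated best with its own number. Krtap28-13, at 0.35, turned to -0.23 without blastema array 1, and ran up to 0.96 when other single arrays were left out. Of the other settings for named members, 329 kept the direction and side of the threshold and 30 passed it. The count above the background level was 45, with 47 at the 90th percentile of the olfactory receptor genes and 51 at their median. The cause of these shifts was not tested where fewer genes or arrays do not give it. With 3 and 4 arrays, differences as small as those of the brightest members may miss the threshold.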
